A study of Mus musculus with 10 samples.

Results

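Genes for the synthesis, uptake and transport of cholesterol were followed in whole ovaries. The set holds 28 genes out of 22891 in the deposited table. Its members were chosen by gene symbol, through the Ensembl identifiers of the table, and all 28 were found and passed the filter on low values. They comprise 7 genes of the mevalonate pathway, 11 of the steps that turn farnesyl diphosphate into cholesterol, 5 that control the sterol-sensing transcription factors and 5 of uptake, transport and efflux. Libraries of whole ovaries came from mice labelled Uba3 cKO (5) and from mice labelled control (5). All were 3-week-old, non-stimulated mice of a C57/Bl6/N;129SvEv7 strain. The product of Uba3 is part of the enzyme that primes NEDD8 for attachment to cullins, the scaffolds of a class of ubiquitin ligases. The labels name neither the Cre driver nor the deleted exons, and they do not say that each library came from a separate animal, so the p-values measure only the spread between these samples.

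Most mammalian cell types can build cholesterol from acetyl-CoA by way of mevalonate, farnesyl diphosphate and squalene. When sterols run low in the endoplasmic reticulum, the escort protein Scap carries the precursor of the transcription factor SREBP-2 to the Golgi, where it is cut and freed to switch on most of these genes. Insig proteins hold Scap back when sterols are plentiful. In the mouse ovary, granulosa cells make cholesterol and pass it to the oocyte, which makes little of its own, and theca and luteal cells use cholesterol as the starting material of steroid hormones.

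Levels are given as deposited, in log2 units, and since no read counts could be had from them, the depth behind each value is unknown. The transform behind the levels is not named, so every fold given here takes 1 unit as a doubling without a check. Library medians lay between 6.29 and 6.44. Uba3 itself stood at 10.12 ± 0.069 under the Uba3 cKO label and at 10.12 ± 0.18 in controls (SD, n = 5 each; exact two-sided permutation test, p = 1), so a gene-level value in the whole organ did not check the labels. Markers of follicles were high in every library, with Inha between 16.52 and 16.87 and Gdf9 between 11.89 and 12.67. Over 16 oocyte markers the list mean ran from 9.57 to 10.46 in Uba3 cKO libraries and from 9.79 to 10.47 in control libraries. In a whole organ, fewer cells of a type and less RNA per cell cannot be told apart. Control replicate 3 stood apart from the other libraries: it had the lowest limma quality weight (lower for a library that scatters more from its group), 0.256 against 0.873 to 1.52 for the rest, and its deviations sloped with log2 transcript length by -0.17, where the others ran from -0.074 to 0.070.

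None of the 28 cholesterol genes passed the test between Uba3 cKO and control ovaries. For all of them a large difference in the whole organ, on the deposited scale, lay outside the interval. By limma, 0 of 28 members passed an adjusted p of 0.05 and 0 of 28 were at an unadjusted p under 0.05. Over all 15632 genes tested the shares called were 0.0% and 1.79%. In 0 of 28 members the groups did not overlap, where 0.32% of all genes tested had groups that did not. Every adjusted p of a member was 1. For all 28 members the 95% interval stayed inside 0.5 log2 units on both sides of 0, and for 94.9% of all genes tested it did so too. It stayed inside 0.25 units for 15 members, or 53.6%, against 51.2% of all genes and 60.1% of those with a mean of at least 8, as 25 of the members have. The widest bounds allowed a fold of no less than 0.731 and no more than 1.31 between the groups, if 1 unit is a doubling. These bounds are for whole-ovary levels; a change in one cell type could be larger.

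Most members averaged slightly higher in Uba3 cKO ovaries, at sizes below the spread between libraries. Of the 28 members, 20 had the higher mean in Uba3 cKO ovaries and 8 in controls, where 50.2% of all genes tested had the higher mean in Uba3 cKO ovaries. The median difference, Uba3 cKO minus control, was 0.030 over the members and 0.00033 over all genes tested, and the median size of a difference was 0.041 for the members and 0.050 for all genes. Genes measured in the same libraries are not independent of one another, so neither are the 20. Leaving out 1 library moved this count between 16, without Uba3 cKO replicate 2, and 23, without control replicate 2. Leaving out single libraries moved the median difference between 0.015, without control replicate 4, and 0.058, without control replicate 2.

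**Figure D1:**
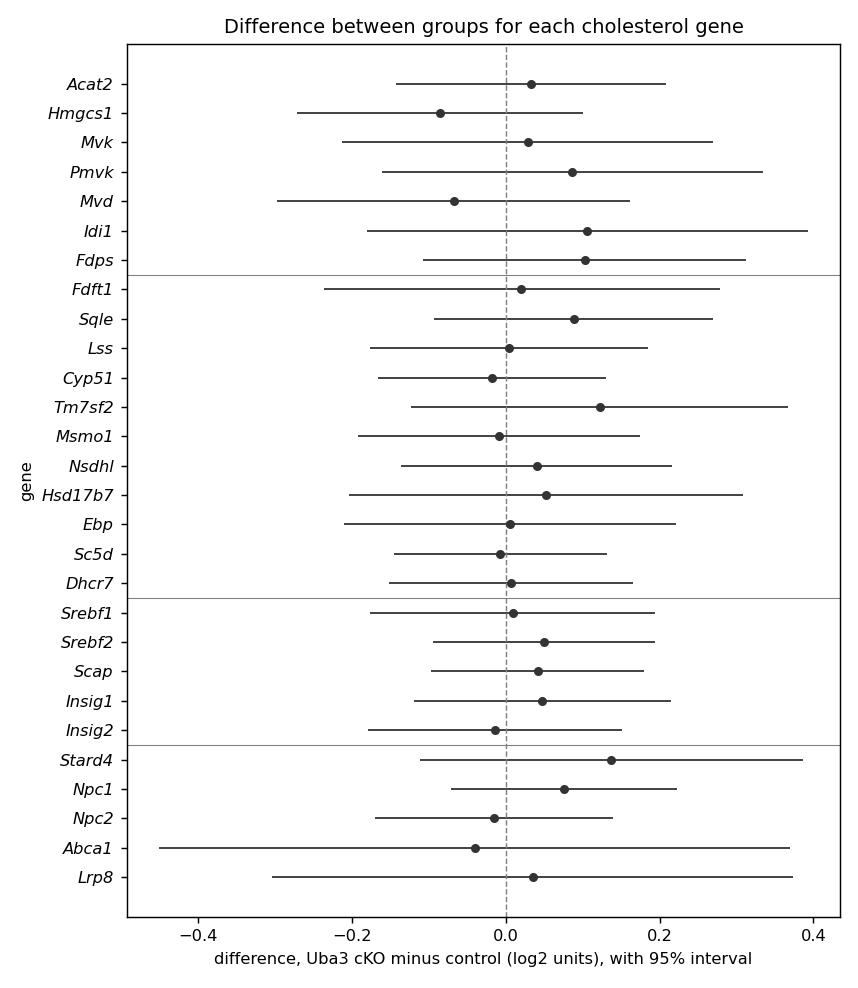
Difference in level, Uba3 cKO minus control, for each of the 28 cholesterol genes on the log2 scale (points), with the 95% interval from limma (lines, n = 5 each); grey lines part the 4 roles. Every interval crosses 0, and the widest belongs to Abca1, from -0.45 to 0.37.

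The sequence near the start of these genes is shown because SREBP-2 acts through short elements there together with the CCAAT-binding factor NF-Y. RefSeq promoters (build GRCm38.p6, 250 bases before to 50 after the annotated start) were found for 23 of the 28 members. Fdps, Fdft1, Sqle, Stard4 and Npc1 are only named. The letters TCACNCCAC of a sterol regulatory element, searched on both strands, stood in the promoter of 1 member, Hmgcs1. They stood in 1.44% of the 27025 genes of the promoter table. The letters CCAAT, also on both strands, stood in at least 1 promoter of 19 of the 23 members, or 82.6%, against 41.1% of all genes. They stood in all 9 of the matched genes from squalene to cholesterol, in 5 of 6 of the mevalonate pathway, in 4 of 5 of the SREBP control genes and, of Npc2, Abca1 and Lrp8, in Npc2 alone. A match is a run of letters and was not tested as a binding site, and a promoter without one shows only that these letters are not in the window.

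The 250 bases before the start of 4 members are printed 5′ to 3′ on the strand of the gene, with CCAAT or its complement ATTGG, and the sterol element, in capitals. Hmgcs1 is shown as the member that holds the sterol element, Mvk and Msmo1 for their repeated CCAAT letters, and Abca1, the member that varied most between libraries, for a window with neither.
Hmgcs1 (chr13:119690101-119690350, plus strand): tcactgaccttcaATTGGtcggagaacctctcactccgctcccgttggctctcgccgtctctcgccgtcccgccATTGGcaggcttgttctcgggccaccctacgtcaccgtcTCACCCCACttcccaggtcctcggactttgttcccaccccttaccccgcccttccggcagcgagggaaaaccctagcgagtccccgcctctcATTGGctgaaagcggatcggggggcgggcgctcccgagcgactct
Mvk (chr5:114444019-114444268, plus strand): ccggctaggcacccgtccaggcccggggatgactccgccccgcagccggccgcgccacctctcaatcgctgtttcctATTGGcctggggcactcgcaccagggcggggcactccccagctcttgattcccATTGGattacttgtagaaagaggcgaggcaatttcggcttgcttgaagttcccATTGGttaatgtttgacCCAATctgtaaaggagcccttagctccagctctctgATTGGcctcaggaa
Msmo1 (chr8:64733579-64733828, minus strand): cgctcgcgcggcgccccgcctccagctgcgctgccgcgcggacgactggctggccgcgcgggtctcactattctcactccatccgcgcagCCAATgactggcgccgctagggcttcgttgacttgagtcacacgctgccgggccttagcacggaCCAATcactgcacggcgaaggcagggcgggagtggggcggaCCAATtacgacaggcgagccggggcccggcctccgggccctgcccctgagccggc
Abca1 (chr4:53159896-53160145, minus strand): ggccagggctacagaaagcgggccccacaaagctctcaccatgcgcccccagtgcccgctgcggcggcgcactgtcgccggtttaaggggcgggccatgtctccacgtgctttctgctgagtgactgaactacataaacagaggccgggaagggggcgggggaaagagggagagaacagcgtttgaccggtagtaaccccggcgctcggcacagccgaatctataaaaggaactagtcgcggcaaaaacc
The Hmgcs1 stretch holds the sterol element once and CCAAT letters at 3 places, the Mvk stretch CCAAT letters at 5 places and the Msmo1 stretch at 3.

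The mevalonate pathway begins with the joining of acetyl-CoA units and ends with farnesyl diphosphate. Of its 7 genes, 5 averaged higher in Uba3 cKO ovaries, with differences from -0.085 to 0.11. Hmgcs1 (ENSMUSG00000093930), the cytosolic HMG-CoA synthase, had the highest deposited level of the 7, with no correction for length. It stood at 10.38, 10.58, 10.08, 10.37 and 10.18 in Uba3 cKO replicates 1 to 5, against 10.38, 10.45, 10.51, 10.37 and 10.32 in control replicates 1 to 5. Uba3 cKO replicates 3 and 5 were below every control and replicate 2 was above every control, so the groups overlapped. The difference was -0.085 (standard error 0.086, 95% interval -0.27 to 0.10), the lowest of all 28 members.

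Idi1 (ENSMUSG00000058258), which isomerises isopentenyl diphosphate, varied most within the pathway. It stood at 7.49, 7.69, 7.19, 7.42 and 7.31 in Uba3 cKO replicates 1 to 5, against 7.26, 7.66, 6.92, 7.36 and 7.37 in control replicates 1 to 5. Replicate 2 was the highest of each group, and control replicate 3 was the lowest of all 10. The difference was 0.11 (standard error 0.13), and with any 1 library left out it stayed between 0.0078 and 0.19. Processed pseudogenes Gm13502 and Gm35570 match 22.6% and 22.5% of the longest coding transcript of Idi1, at 100% and 97.65% identity. Reads could be shared there. Fdps, which makes farnesyl diphosphate, differed by 0.10 (standard error 0.097), with Uba3 cKO libraries between 10.30 and 10.57 and control libraries between 10.09 and 10.66. Its value is uncertain where reads could be shared: Gm43738 is 100% identical over 67.2% of its longest coding transcript and shares 26.7% of its exon bases on the same strand, and processed pseudogenes match it at 96.1% to 98.9%. Acat2, which joins acetyl-CoA units, and Mvk, which phosphorylates mevalonate, differed by 0.032 (standard error 0.081) and 0.028 (standard error 0.11). Pmvk, the next kinase, and Mvd, the decarboxylase that follows, had differences of opposite sign, 0.087 (standard error 0.12) and -0.068 (standard error 0.11).

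The 11 genes from squalene to cholesterol had the smallest median difference of the 4 roles, although Tm7sf2 (0.12) and Sqle (0.088) were among the larger differences of the set. Of the 11, 8 averaged higher in Uba3 cKO ovaries and 3 in controls, and the median difference was 0.0071. Fdft1 (ENSMUSG00000021273), the squalene synthase that commits farnesyl diphosphate to sterols, had both the highest deposited level and the largest SD over the 10 libraries of the 11. It stood at 10.55, 10.55, 10.21, 10.35 and 10.12 in Uba3 cKO replicates 1 to 5, against 10.10, 10.57, 10.62, 10.17 and 10.21 in control replicates 1 to 5. Both groups held high libraries near 10.6 and low ones near 10.1, and the means differed by 0.020 (standard error 0.12). A stretch of 774 bases, 20.9% of the longest coding transcript of Fdft1, lies opposite exons of Ctsb, a lysosomal protease whose level averaged 11.8. The notes do not say whether counting used strand, so reads of Fdft1 and Ctsb there may not be told apart. A processed pseudogene, Gm6781, also matches 33.75% of that Fdft1 transcript at 97.44% identity.

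Sqle, the squalene epoxidase and an early control point of the sterol branch, stood at 9.86 ± 0.094 under the Uba3 cKO label and at 9.77 ± 0.17 in controls (SD, n = 5 each). Lss, which closes the ring to lanosterol, stood at 8.51 ± 0.057 in Uba3 cKO ovaries and at 8.50 ± 0.16 in controls. Cyp51, the lanosterol demethylase, stood at 9.76 ± 0.058 in Uba3 cKO ovaries and at 9.78 ± 0.13 in controls. These 3 genes varied less among the Uba3 cKO libraries than among the controls, and their means differed by less than 0.17, the larger of the SDs.

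Of the other steps after lanosterol, all but that of Tm7sf2 differed by less than Sqle. Msmo1, the C4 methyl oxidase, differed by -0.0083 (standard error 0.085). Nsdhl and Hsd17b7, which act with it to remove the C4 methyl groups, differed by 0.040 (standard error 0.081) and 0.052 (standard error 0.12). Ebp, the sterol isomerase, and Sc5d, the desaturase after it, differed by 0.0054 (standard error 0.10) and -0.0077 (standard error 0.064). Dhcr7, which reduces 7-dehydrocholesterol to cholesterol, differed by 0.0071 (standard error 0.074). Tm7sf2, a sterol C14 reductase, had the lowest deposited level of the set and differed by 0.12 (standard error 0.11), with Uba3 cKO libraries between 6.04 and 6.30 and control libraries between 5.78 and 6.39. It shares 532 exon bases with Vps51 on the same strand.

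The control genes of the SREBP pathway had the lowest median SD of the 4 roles, 0.10. The SDs of Srebf1 and Insig1 were still above those of 60.7% and 53.2% of the tested genes near their levels. Scap (ENSMUSG00000032485), the escort of the SREBP precursors, had the highest deposited level of the 28, with no correction for length. It stood at 12.13, 12.29, 12.10, 12.30 and 12.19 in Uba3 cKO replicates 1 to 5, against 12.25, 12.23, 12.18, 12.09 and 12.05 in control replicates 1 to 5. The groups overlapped, with the lowest value in a control library and the highest in a Uba3 cKO library, and the difference was 0.041 (standard error 0.064). Srebf1, which encodes the SREBP-1 factors of fatty acid and sterol synthesis, had the largest SD of the 5 control genes. It stood at 10.14, 10.37, 10.10, 10.21 and 10.08 in Uba3 cKO replicates 1 to 5, against 10.28, 10.28, 10.32, 9.97 and 10.01 in control replicates 1 to 5. Control replicates 4 and 5 were the lowest of all 10 and the difference was 0.0087 (standard error 0.086). Srebf2, which encodes SREBP-2, stood at 10.89 ± 0.052 under the Uba3 cKO label and at 10.85 ± 0.13 in controls (SD, n = 5 each).

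The paralogs of this group were set side by side per kilobase of their longest coding transcript, since levels of different genes can be compared only per length. On that log2 scale the level of Insig1, itself an SREBP target, exceeded that of Insig2, the paralog that is not, by 2.26 ± 0.20 in Uba3 cKO ovaries and by 2.20 ± 0.23 in controls (SD, n = 5 each). Over the 10 libraries that is a fold of 4.68, and the gap ran from 1.97 to 2.52. Srebf2 exceeded Srebf1 by 0.47 ± 0.094 in Uba3 cKO ovaries and by 0.43 ± 0.12 in controls, a fold of 1.37 per kilobase. Insig1 and Insig2 differed between the groups by 0.047 (standard error 0.077) and -0.014 (standard error 0.076).

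Uptake, transport and efflux held the members that varied most. Abca1 (ENSMUSG00000015243), the pump that hands cholesterol to lipid-poor apolipoproteins, stood at 9.91, 10.32, 10.37, 10.57 and 10.42 in Uba3 cKO replicates 1 to 5. Control replicates 1 to 5 stood at 10.98, 10.37, 9.73, 10.18 and 10.53. Controls thus held both the highest and the lowest of the 10 values, a 2.38-fold range, and the means differed by -0.041 (standard error 0.19). Its SD over the 10 libraries, 0.35, was above that of 98.7% of the 2563 tested genes within 0.5 units of its level. The mean of the theca and steroidogenic markers was 9.50 in control replicate 1, where Abca1 was highest, and 9.03 in control replicate 3, where it was lowest, within 8.65 to 9.18 in the libraries other than control replicate 1. The mean of the macrophage markers was 6.34 in control replicate 1 and 6.18 in control replicate 3, with the lowest library at 5.83. The granulosa markers had their lowest means in the libraries where Abca1 was lowest, 12.36 in Uba3 cKO replicate 1 and 12.31 in control replicate 3, against 12.42 to 12.62 in the others. Over the 10 libraries Abca1 and the granulosa markers gave r = 0.66 (permutation p = 0.0342, adjusted p = 0.359; rho = 0.64, p = 0.0533, adjusted p = 0.561), and r = 0.44 without control replicate 3 and Uba3 cKO replicate 4. In control replicate 3 and Uba3 cKO replicate 1, where Abca1 was lowest, the slopes on transcript length were the most negative of all, -0.17 and -0.074, and Abca1 has the longest transcript of the set, 10262 bases. The part of length in the spread of Abca1 was not tested.

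Lrp8 (ENSMUSG00000028613), the lipoprotein receptor family member ApoER2, which binds reelin, stood at 8.57, 9.41, 8.96, 9.07 and 9.23 in Uba3 cKO replicates 1 to 5. Control replicates 1 to 5 stood at 8.57, 9.09, 8.96, 9.15 and 9.29. The lowest library of each group was replicate 1, and the rest lay between 8.96 and 9.41. The means differed by 0.035 (standard error 0.16), and the SD of 0.28 was above that of 93.2% of the tested genes near its level.

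Stard4 (ENSMUSG00000024378), which carries cholesterol between membranes inside the cell, had the largest difference of the 28, 0.14 (standard error 0.12; limma adjusted p = 1). It stood at 8.69, 8.73, 8.57, 8.67 and 8.63 in Uba3 cKO replicates 1 to 5, against 8.63, 8.93, 8.22, 8.48 and 8.34 in control replicates 1 to 5. The Uba3 cKO libraries lay close together inside the range of the controls, whose replicates 2 and 3 were the highest and the lowest of all 10. Its values in every library, and those of Lrp8, were added after they were seen. Without control replicate 2 the difference was 0.24 and limma's unadjusted p 0.0236. In that fit Fdps (0.19) and Tm7sf2 (0.22) were also at an unadjusted p under 0.05, and 0 members were called. Without control replicate 3, the library of lowest quality weight, the differences of Stard4, Fdps and Tm7sf2 were 0.061, 0.053 and 0.099. With quality weights in the fit they were 0.058, 0.031 and 0.079.

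Npc2 and Npc1, which pass cholesterol out of the lysosome, were steady. Npc2 stood at 10.96, 10.86, 10.95, 10.82 and 10.99 in Uba3 cKO replicates 1 to 5, against 10.99, 10.93, 11.10, 10.92 and 10.72 in control replicates 1 to 5. The Uba3 cKO values lay inside the control range, and the difference was -0.015 (standard error 0.072). Npc1 stood at 9.84 ± 0.049 in Uba3 cKO ovaries and at 9.76 ± 0.13 in controls (SD, n = 5 each), a difference of 0.076 (standard error 0.068). The Npc2 level exceeded that of Npc1 per kilobase by 1.74 ± 0.12 in Uba3 cKO ovaries and by 1.83 ± 0.18 in controls on the log2 scale.

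**Figure D2:**
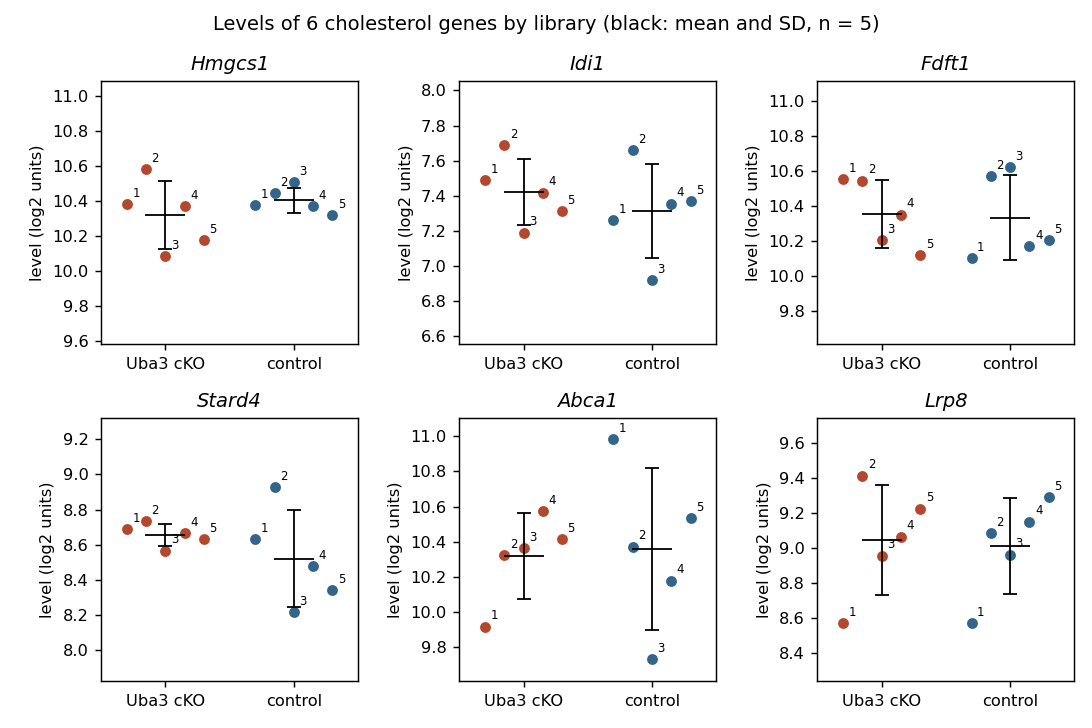
Levels of 6 cholesterol genes in each library on the deposited log2 scale, Uba3 cKO left and control right; numbers are replicate numbers and the black marks give the mean and SD (n = 5). In each gene the groups overlap, with Abca1 spread from 9.73 to 10.98 and Stard4 close together in the Uba3 cKO libraries.

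A few libraries held many of the highest and lowest values of the members. In control replicate 2, 25 of the 28 members were above their own mean over the 10 libraries, where 50.6% of all genes tested were. That library held the highest value of 11 members, which is 39.3% of them, and of 2.57% of the tested genes with a mean of at least 8. The 11 were Acat2, Fdps, Sqle, Lss, Cyp51, Tm7sf2, Msmo1, Dhcr7, Srebf2, Insig1 and Stard4. The median deviation of the members there was 0.11, and 0.18 for the genes from squalene to cholesterol. The same library also had the highest mean of the oocyte markers, 10.47. Uba3 cKO replicates 4, 1 and 2, with 10.46, 10.38 and 10.32, had 17, 20 and 22 members above their mean. Control replicate 3, with 10.35, had 12. In the libraries with lower means, Uba3 cKO replicates 5 and 3, with 9.57 and 9.82, had 16 and 13. Control replicates 1, 4 and 5, with 9.79, 9.82 and 10.12, had 15, 5 and 11. Whether oocyte content had a part in these counts was not tested.

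Other libraries lay on either side. In Uba3 cKO replicate 2, 22 of 28 members were above their mean, and Hmgcs1, Idi1, Srebf1 and Lrp8 had their highest value there. In control replicate 4, 5 of 28 were, and Mvd, Cyp51, Tm7sf2, Srebf1, Srebf2 and Npc1 had their lowest value there. That made 21.4% of the members, against 5.17% of the tested genes with a mean of at least 8. The highest and the lowest libraries by this count were thus both controls.

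In control replicate 3 the set split. It held the highest value of 6 members, Mvk, Pmvk, Mvd, Fdft1, Ebp and Npc2, and the lowest of 10, Idi1, Fdps, Sqle, Lss, Msmo1, Hsd17b7, Sc5d, Insig1, Stard4 and Abca1. These shares of 21.4% and 35.7% were close to the 26.0% and 33.1% of all tested genes with a mean of at least 8 that had their extremes there. The longest coding transcripts of the 6 members highest in it had a median of 1749.5 bases (1194 to 3698). Those of the 10 lowest had a median of 3819.5 bases (1382 to 10262), and the ranges overlap. Fdft1, at 3698 bases, was among the highest and Fdps, at 1382, among the lowest. The part of transcript length in this split was not tested.

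**Figure D3:**
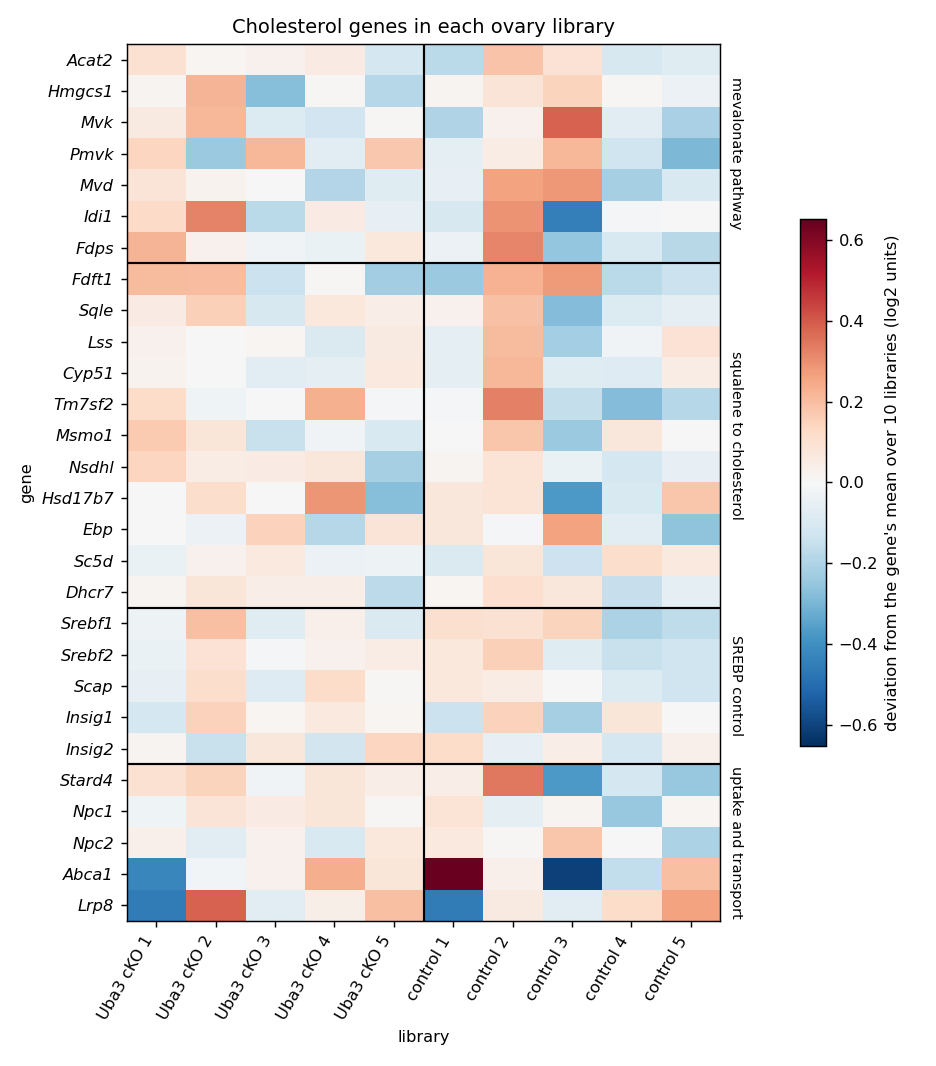
Deviation of each cholesterol gene (rows, grouped by role) from its own mean over the 10 libraries, in log2 units (red above, blue below), with Uba3 cKO libraries left of the line and controls right. Control replicate 2 is above the mean in 25 of 28 genes, and control replicate 3 is split between high and low genes.

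**Figure D4:**
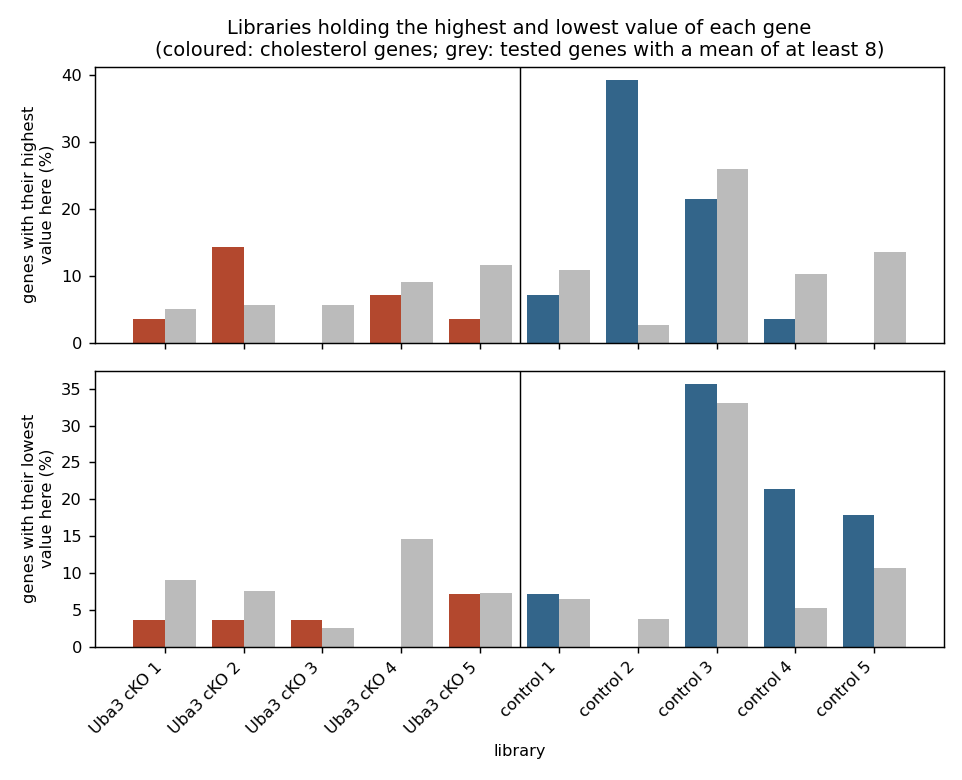
Percent of genes whose highest (top) or lowest (bottom) value over the 10 libraries falls in each library; coloured bars are the 28 cholesterol genes and grey bars the tested genes with a mean of at least 8. Control replicate 2 held the highest value of 39.3% of the cholesterol genes and of 2.57% of the others.

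Controls were the more variable group. The SD among controls was larger than that among Uba3 cKO libraries in 22 of 28 members, with median SDs of 0.11 in Uba3 cKO ovaries and 0.17 in controls. Controls had the larger SD in 67.8% of the tested genes with a mean of at least 8 as well. Without control replicate 3 they had it in 19 of 28 members, against 41.6% of those genes. Over the 10 libraries, member SDs ran from 0.081 for Sc5d to 0.35 for Abca1, with a median of 0.14 for the members and 0.14 for all genes tested. Of the 28 members, 17 had an SD above the median of tested genes within 0.5 units of their own level.

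**Figure D5:**
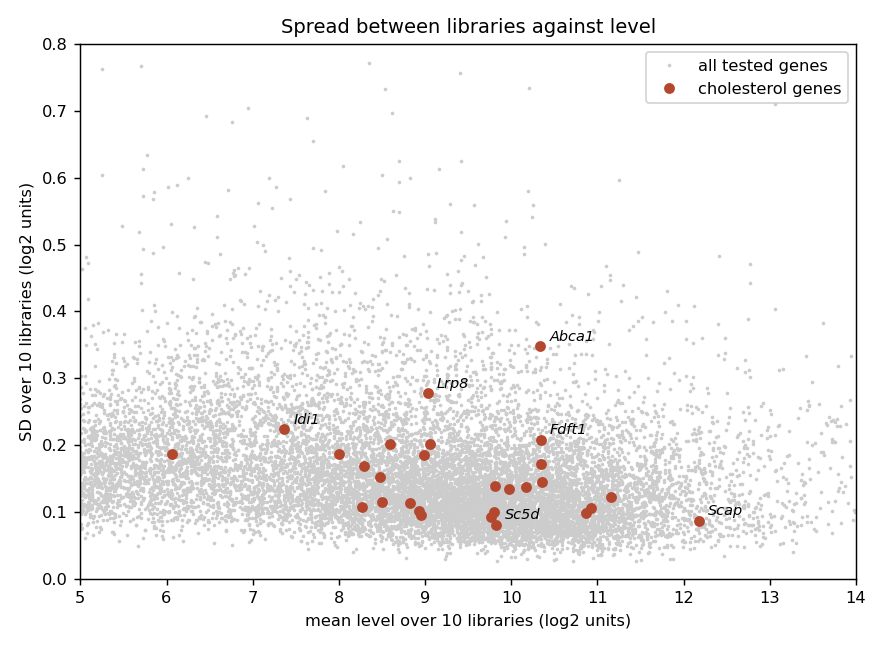
SD over the 10 libraries against mean level, both in log2 units; red points are the 28 cholesterol genes and grey points all tested genes (axes cut at means of 5 and 14 and at an SD of 0.8). Abca1, at an SD of 0.35, and Lrp8, at 0.28, lie above most genes of their level, and Sc5d, at 0.081, lies below.

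Member levels were then set against the mean levels of oocyte, granulosa and stroma markers over the 10 libraries, since whole ovaries differ in their mix of cells. Of the 84 relations, 0 passed an adjusted p of 0.05 in permutation tests of Pearson's r, and 9 were at an unadjusted p under 0.05. With the oocyte markers 5 of 28 members were at that level, or 17.9%, against 14.9% of the 15616 tested genes outside the list. With the granulosa markers 2 of 28 were, or 7.14%, against 23.7% of genes, and with the stroma markers 2 of 28, against 10.4%. The counts of members were thus near or below those of all genes. The smallest p belonged to Fdft1 and the oocyte markers (r = 0.87, permutation p = 0.00434, adjusted p = 0.242; Spearman's rho = 0.83, p = 0.00503, adjusted p = 0.211). The r was 0.81 without the libraries farthest from the median of the marker mean, Uba3 cKO replicate 5 and control replicate 1. Acat2 and the oocyte markers gave the next smallest p (r = 0.81, permutation p = 0.00703, adjusted p = 0.242; rho = 0.88, p = 0.00166, adjusted p = 0.139), with r = 0.72 without the same libraries. A paralog, Acat3, is 97.7% identical over 65.6% of the longest coding transcript of Acat2 but stood at a mean of 1.70. Scap and the stroma markers gave r = 0.79 (permutation p = 0.00865, adjusted p = 0.242; rho = 0.72, p = 0.0234, adjusted p = 0.452), with r = 0.63 without Uba3 cKO replicate 4 and control replicate 5. By limma, 0 genes of the oocyte, granulosa, theca, stroma, endothelium, smooth muscle, macrophage, blood, adipocyte and surface epithelium marker lists were called or at an unadjusted p under 0.05.

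The other genes around this pathway gave no call either. By limma, 0 of 12 genes of acetyl-CoA supply and isoprenoid branches passed over all genes and 1 was at an unadjusted p under 0.05, with 8 averaging higher in Uba3 cKO ovaries and a median difference of 0.029. Acly, which makes cytosolic acetyl-CoA, stood at 11.73 ± 0.16 in Uba3 cKO ovaries and at 11.65 ± 0.28 in controls, and Cyb5r3, a cytochrome b5 reductase, at 11.24 ± 0.14 in Uba3 cKO ovaries and at 11.26 ± 0.18 in controls (SD, n = 5 each). Of 12 further genes that control SREBP or sterol enzymes, 10 averaged higher in Uba3 cKO ovaries, 0 were called and 0 were at an unadjusted p under 0.05 (median difference 0.030). Mbtps1, the Golgi protease that cuts SREBP first, stood at 12.73 ± 0.089 in Uba3 cKO ovaries and at 12.69 ± 0.15 in controls.

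Among 12 other lipoprotein receptors and their partners, 6 had the higher mean in each group, 0 were called and 0 were at an unadjusted p under 0.05. Lrp1, a large scavenger receptor, stood at 13.66 ± 0.15 in Uba3 cKO ovaries and at 13.85 ± 0.23 in controls, a difference of -0.18 (standard error 0.11; limma adjusted p = 1). Among 18 tested genes of cholesterol esters and transport within the cell, 10 averaged higher in Uba3 cKO ovaries, with 0 called and 0 at an unadjusted p under 0.05. Soat1, which esterifies cholesterol for storage, stood at 12.44 ± 0.18 in Uba3 cKO ovaries and at 12.44 ± 0.17 in controls. Gramd1b, which moves cholesterol from the plasma membrane to the endoplasmic reticulum, stood at 12.20 ± 0.12 in Uba3 cKO ovaries and at 12.23 ± 0.20 in controls.

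The efflux, LXR and oxysterol list had 4 of 11 tested genes that averaged higher in Uba3 cKO ovaries, 0 called and 0 at an unadjusted p under 0.05. Nr1h2, the sterol-sensing receptor LXR-beta, stood at 10.60 ± 0.097 in Uba3 cKO ovaries and at 10.64 ± 0.16 in controls, and Abca2, a lipid transporter, at 10.20 ± 0.14 in Uba3 cKO ovaries and at 10.16 ± 0.12 in controls. Of 14 fatty acid targets of SREBP-1, 9 averaged higher in Uba3 cKO ovaries, with 0 called and 0 at an unadjusted p under 0.05 (median difference 0.022). Scd2, a stearoyl-CoA desaturase, stood at 15.10 ± 0.15 in Uba3 cKO ovaries and at 15.05 ± 0.12 in controls. Gpam, which starts glycerolipid synthesis, stood at 12.39 ± 0.13 in Uba3 cKO ovaries and at 12.28 ± 0.32 in controls.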

How the data were processed

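Whole-ovary RNA was extracted with PicoPure and made into 10 TruSeq libraries for NovaSeq sequencing, per the labels' protocols. The submitters' processing notes list GRCm39 as the build and, without versions or roles, DESeq2, featureCounts, fastp and STAR. The authors deposited log2 values per gene (-0.21 to 20.19); their transform is not named, and depth and counting error are unknown, so no count test or pseudocount was used. The design had allowed for linear values; the log2 values were tested as deposited.

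Columns were matched to samples by the names in the labels. Symbols were found for 22188 of 22891 identifiers, and transcript lengths and overlaps came from GENCODE M21 (GRCm38), with no coordinates mixed between builds. Genes with a mean linear level of at least 10 were kept (15632). The group test was limma (3.58.1, under R 4.3.3), using its mean-variance trend, with Benjamini-Hochberg adjustment over all tested genes. On simulated data it recovered 15.2% of shifts of 0.25 units and 81.9% of shifts of 0.5 units. Each run held 200 shifted genes, with shifts from 0.25 to 2 units, all among genes with a mean of at least 8. With that many shifted genes the adjusted threshold is easier to pass than for a gene shifted alone. A lone shift would thus be recovered less often than these shares say. The simulated noise was independent between genes and equally wide in all libraries. The real libraries were less even, with control replicate 3 at the lowest weight, so these shares may not hold for them. Similar transcripts were found with blastn 2.17.0 at 95% identity or more over at least 20% of the transcript. Correlations used 100000 permutations and adjustment over 84 relations; the same test over all tested genes, added after the data were seen, gave the background shares. Library slopes were fitted over tested genes with a mean of at least 8.

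The 28 members and all lists were chosen with earlier results of these data known. Named were all members, Uba3 and the 2 most abundant tested genes of each of 6 other pathway lists, of which 2 are not reported here. Values of every library were given for the most abundant and most variable member of each role. No pair of libraries was identical, and the labels give no batch.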

Additional observations from a re-analysis of the deposited data

Results flagged for a closer look

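In a group of 5 libraries, a value was singled out where its gap to the nearest other exceeded 0.71 of the group's range. Of 58 groups looked at, 2 met this, where chance gives about 1 in 20. Both were in Uba3 cKO replicate 5, the library with the lowest mean of the oocyte markers, 9.57. Nsdhl stood at 8.06 there, against 8.32 to 8.41 in the other Uba3 cKO libraries. Dhcr7 stood at 8.79 there, against 8.98 to 9.04 in the others. Over the 10 libraries Nsdhl and Dhcr7 gave r = 0.70 and r = 0.74 with the oocyte markers (permutation adjusted p = 0.359 and 0.285), values that include this library. Without it and control replicate 1, they gave r = 0.57 and r = 0.67 (exact permutation adjusted p = 0.785 and 0.612).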

How the results depend on the processing

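No gene and no member passed adjustment under any of the 19 alternatives: no filter, a minimum mean of 50, the replicate block, no trend, quality weights, centred medians, quantile normalization, oocyte or stroma markers as a covariate, and each library left out. The number of genes at an unadjusted p under 0.05 was 280; it was 604 with no filter, 133 with a minimum mean of 50 and 429 with the oocyte covariate, and ran from 199 to 392 with 1 library left out. Of the members 0 were at that level, and from 0 to 3 with 1 library left out, the 3 without control replicate 2. The median member difference of 0.030 was also 0.030 with the replicate block, and ran from 0.015 to 0.058 with 1 library left out. Of the relations with markers 0 were called, also after subtracting group means or leaving out the farthest libraries. Same-numbered libraries deviated together with correlations from -0.27 to 0.28. The labels do not say whether the numbers pair libraries, and these correlations cannot settle it. With the replicate block, 0 genes were called by limma and 311 were at an unadjusted p under 0.05.

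Of 532 member differences under alternatives, 474 kept their sign, and 12 members kept it in all 19. With 1 library left out the differences of the other 16 members ran across 0: Acat2 -0.00754 to 0.0827, Mvk -0.0223 to 0.13, Fdft1 -0.0373 to 0.0922, Lss -0.0509 to 0.0561, Cyp51 -0.0403 to 0.0338, Msmo1 -0.0692 to 0.0361, Hsd17b7 -0.0349 to 0.13, Ebp -0.0591 to 0.0711, Sc5d -0.0429 to 0.0198, Dhcr7 -0.029 to 0.0502, Srebf1 -0.0415 to 0.0461, Insig1 -0.000286 to 0.0914, Insig2 -0.0503 to 0.0209, Npc2 -0.0695 to 0.0276, Abca1 -0.20 to 0.12, Lrp8 -0.0749 to 0.15. Lss was -0.00094 with centred medians, -0.049 with quality weights and -0.0016 with quantile normalization, under which Ebp was -0.0017 and Msmo1 0.00018. Npc2 was 0.0028 with quality weights, and Dhcr7 -0.00057 and Srebf1 -0.0072 with the stroma covariate. The cause was not tested. Depth is unknown. The counts at an unadjusted p and of higher means under each alternative were added after the data were seen.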
